A study of Homo sapiens with 2 samples.

Results

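The genes described here encode the core proteins of the small nucleolar ribonucleoproteins (snoRNPs) and a pair of nucleolar proteins that help to assemble them. They are FBL, NOP56, NOP58 and SNU13 (listed in older annotations as NHP2L1) of the box C/D particles, DKC1, NHP2, NOP10 and GAR1 of the H/ACA particles, and NOLC1 and TCOF1. The genes were chosen by name, as known components, but with earlier results of these data known, so the counts below are a description. A value was taken only from a probe set whose annotation names that gene alone. By that rule 8 of the 10 genes had a value, among 19775 genes that have such a probe set in the whole series. All probe sets of NOP56 and DKC1 also name snoRNAs and a microRNA that lie inside those genes, so neither gene was given a value of its own.

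The series compared 2 microarrays of bulk RNA from HT-29, a human colorectal adenocarcinoma cell line, to measure the gene expression change under MYC knockdown. The array called MYC siRNA came from cells transfected with pooled siRNAs that target MYC, and the array called control siRNA from cells that, by the protocol, received a non-targeting siRNA pool, although the treatment label of that sample reads None. Both pools were used at 20 nM for 24 h, and the cells were taken after 48 h. Each group is 1 array, so no difference below has a replicate check, no p-value was computed, and the comparison is of these arrays.

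A snoRNP consists of a guide snoRNA and a fixed set of proteins. Box C/D particles place methyl groups on the ribose of ribosomal RNA, with fibrillarin (FBL) as the methyltransferase, and H/ACA particles convert uridine to pseudouridine, with dyskerin (DKC1) as the enzyme. The guide RNAs base-pair with the target and so choose the site. Many snoRNAs are cut from the introns of genes for proteins of the translation machinery. Genes of ribosome production, snoRNP proteins among them, are known targets of MYC.

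The signal of MYC went from 1963 on the control array to 1640 after knockdown, 1.20-fold lower, in the only probe set that names it. The deposited values are MAS5 signals, a summary of the brightness of the short probes for one transcript, scaled to the same mean on both arrays. Signals under 50 were set to 50, and the log2 ratio of the MYC siRNA array to the control array was taken. A gene is described by its brightest probe set, and it counts as measured when this exceeds 50 on at least 1 array, which held for 8917 genes. The only error available is the disagreement between probe sets of the same gene, with an SD of the log2 ratio of 0.27 in dim, 0.23 in middle and 0.18 in bright genes; it leaves out the variation between cultures. A ratio is relative to the array's scaled total, so less RNA of one gene and a change in total RNA per cell cannot be told apart. Of 12 colorectal epithelial markers, 9 exceeded 50 on at least 1 array, and CDX1, CDX2 and GPA33 did not. Of the 9, 7 were higher with MYC siRNA, such as KRT20 (4973 and 7034), KRT19 (3720 and 5649) and LGALS4 (1771 and 3056), and 2 were lower, EPCAM (5156 and 4512) and KRT18 (9363 and 9158). The summed signal of the 12 was 36373 and 42291, and its part in the results below was not tested. The 5 leukocyte markers were between 1.69 and 21.5 on both arrays, and of 7 fibroblast and endothelial markers only COL1A1 exceeded 50 (94.7 and 78.9).

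The snoRNP genes were lower with MYC siRNA as a group. All 8 genes with a value had a lower signal, although NOP10, at 1.02-fold lower, turned to slightly higher after either of 2 other scalings. The median log2 ratio of the 8 was -0.69, beside 0.03 over all 8917 genes. Of all genes, 46.5% were lower. Of the 8, 6 were lower by at least 1.5-fold, against 5.72% of all genes. Of the 1784 genes with the highest mean signal, 5.89% were lower by as much. In that set lie FBL, NHP2 and NOLC1, which were lower by at least 1.5-fold, and NOP58 and NOP10, which were not. No snoRNP gene was higher by 1.5-fold, as 10.4% of all genes were. At 2-fold the count was 1 of 8, against 0.695% of all genes lower and 2.73% higher by as much. The median log2 ratio of that bright set was -0.10, so bright genes in general were slightly lower.

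**Figure D1:**
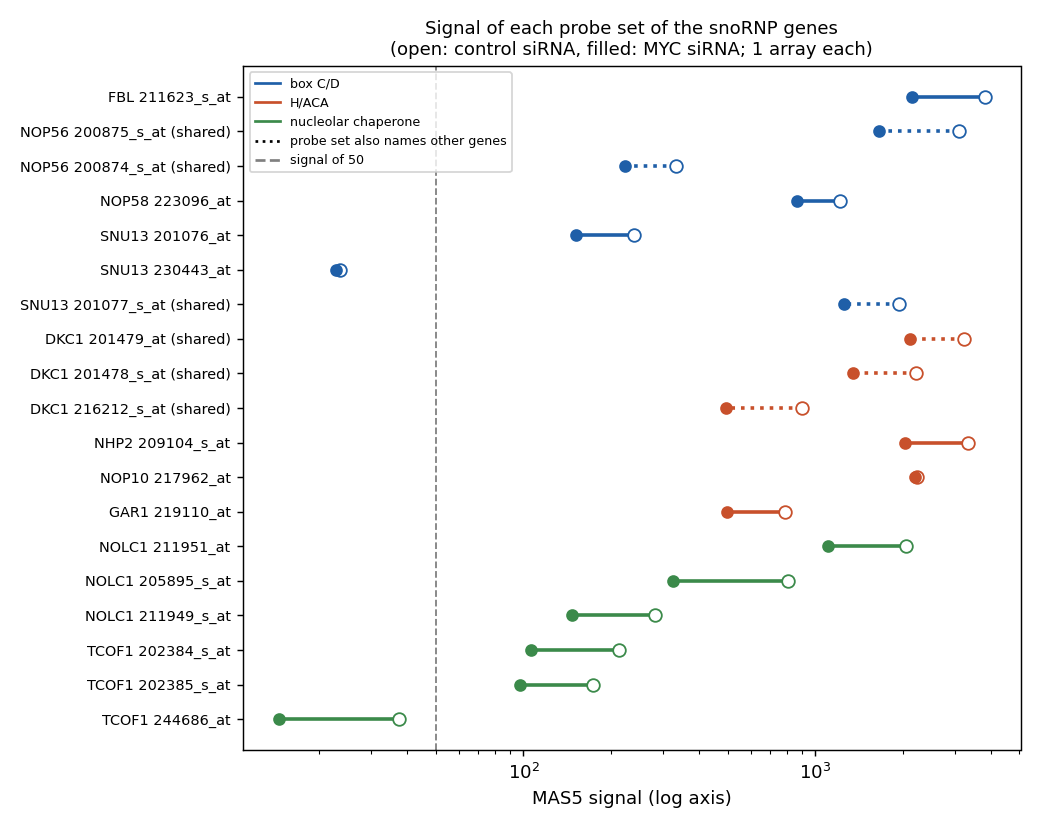
MAS5 signal (log axis) of every probe set of the 10 snoRNP genes with control siRNA (open circles) and MYC siRNA (filled circles), 1 array each; dotted lines mark probe sets that also name other genes and the dashed line a signal of 50. The filled circle lies left of the open one for all 17 probe sets above 50, and the pair nearly coincides for NOP10 at 2230 and 2194.

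Among the core proteins with a value of their own, fibrillarin, the methyltransferase of the box C/D particle, had the lowest ratio, although 1 shared probe set each of NOP56 (log2 ratio -0.91) and DKC1 (-0.86) was lower. FBL went from a signal of 3816 to 2146 after knockdown. This is 1.78-fold lower, a log2 ratio of -0.83, and 1.63% of all genes were as low or lower. NOP58, a scaffold protein that holds fibrillarin on the snoRNA together with NOP56, had signals of 1214 and 865. It was 1.40-fold lower (log2 ratio -0.49), the only box C/D gene with a value that was lower by under 1.5-fold in the probe set used.

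SNU13, the small protein that recognises the bend in box C/D RNA and is also a part of the spliceosomal U4 snRNP, had signals of 240 and 152. It was 1.58-fold lower, a log2 ratio of -0.66. A second probe set that names SNU13 alone had signals of 23.5 and 22.9, under 50 on both arrays, and gives no ratio. One more, which also names ANXA2, had 1931 and 1255, 1.54-fold lower. The ratio of the shared probe set and that of the probe set used differed by less than the SD between probe sets.

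Both probe sets annotated to NOP56, the other scaffold protein, together with the snoRNAs SNORD57, SNORD86 and SNORD110 were lower. The brighter went from 3104 to 1651 (1.88-fold lower), and the dimmer from 334 to 223, or 66.6% of control. These values belong to the probe sets and were not counted for the gene.

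Among the H/ACA proteins the ratios were split. NHP2, which belongs to the same RNA-binding family as SNU13, went from 3333 to 2025, 1.65-fold lower (log2 ratio -0.72). GAR1, the protein that joins the particle last and promotes release of the modified RNA, had 785 and 497, 1.58-fold lower (log2 ratio -0.66). NOP10, the smallest protein of the particle, which binds dyskerin directly, had 2230 and 2194, a log2 ratio of -0.02, and 44.3% of all genes were as low or lower.

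NOP10 was the exception among the 8 genes. In order of their log2 ratio, the next gene to it was NOP58, and the gap was 0.47. This is 2.04 times the SD of 0.23 between probe sets over genes of all signals. That SD is for a single probe set, and the error of a gap between 2 genes is larger. In bright genes, to which both belong, the SD was 0.18. No other gap between neighbours in that order exceeded 0.17, which is within the SD, so neighbours among the other 7 genes could not be told apart. From TCOF1, the lowest, to NOP58 these 7 spanned 0.51. NOP10 was read by 1 probe set. After loess on mean signal its log2 ratio was 0.09 and after quantile normalization 0.05, while the other 7 genes were lower under both.

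All 3 probe sets annotated to DKC1 together with SNORA56 and MIR664B were lower. Their signals with control and MYC siRNA were 3240 and 2105, 2208 and 1346, and 898 and 495, which is 1.54-fold, 1.64-fold and 1.81-fold lower. As with NOP56, these are values of probe sets with several names.

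The medians of box C/D and H/ACA genes were close in the reported setting, but not in every alternative. The median log2 ratio was -0.66 for FBL, NOP58 and SNU13 and -0.66 for NHP2, NOP10 and GAR1, with ranges of -0.83 to -0.49 and -0.72 to -0.02. With the shared probe sets taken as well, the medians over 4 genes each were -0.73 and -0.64. Without probe sets that can bind several transcripts they were -0.57 for NOP58 and SNU13 and -0.34 for NOP10 and GAR1. FBL and NHP2, read only by such probe sets, dropped out there, and the ratios of the genes left did not change. Averaging ratios over probe sets gave medians of -0.49 and -0.66. With 1 array a group this difference was not tested, and its interval is unknown.

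**Figure D2:**
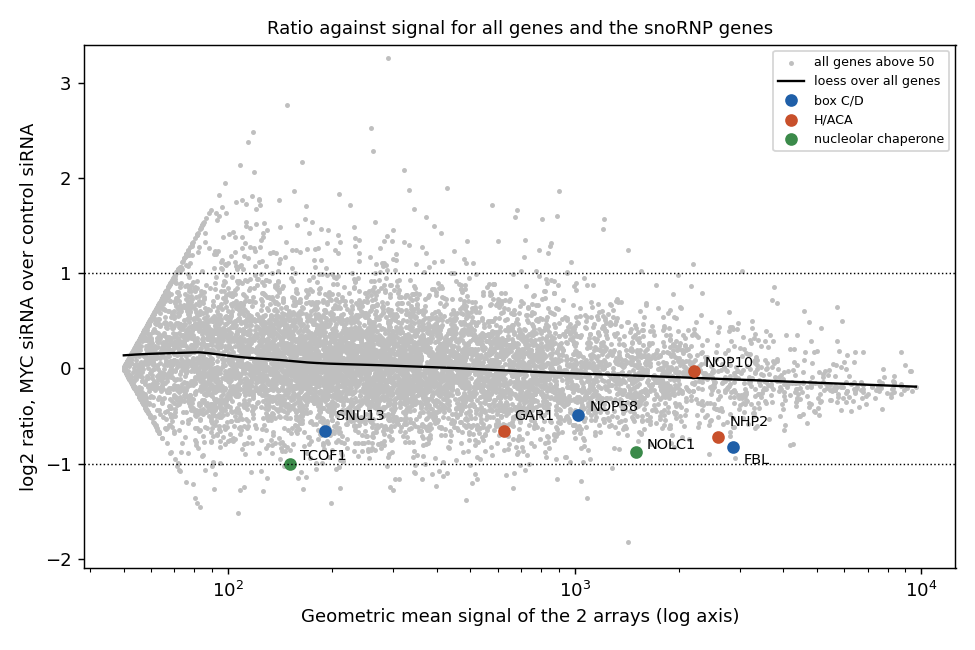
Log2 ratio, MYC siRNA to control (y axis), against the geometric mean signal of both arrays (x axis, log), for 8917 genes (grey) and the 8 snoRNP genes with a value (coloured by particle); the line is a loess curve over all genes and dotted lines mark 2-fold. The curve slopes down towards bright genes, 7 of the 8 genes lie well below it and NOP10, at -0.02, lies just above it.

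The nucleolar phosphoproteins NOLC1 and TCOF1 were both lower, with log2 ratios below that of FBL in their brightest probe sets. TCOF1 was above FBL with ratios averaged over probe sets (-0.61 against -0.83) and with summed signals (-0.78 against -0.83). Both of these take in a TCOF1 probe set under 50 on both arrays, which enters as unchanged. NOLC1, or Nopp140, shuttles between nucleolus and Cajal bodies and binds both kinds of snoRNP, and TCOF1 (treacle), the gene of Treacher Collins syndrome, links RNA polymerase I transcription to rRNA modification. The brightest NOLC1 probe set went from 2040 to 1107, 1.84-fold lower (log2 ratio -0.88). The other 2 went from 809 to 324 and from 281 to 147, 2.49-fold and 1.92-fold lower. All 3 were lower, and their log2 ratios spanned 0.44.

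TCOF1 went from 213 to 106, 2.005-fold lower (log2 ratio -1.003). A second TCOF1 probe set went from 173 to 97.0, 1.79-fold lower, and one more was under 50 on both arrays at 37.3 and 14.5. TCOF1 passed 2-fold by a margin far below the SD between probe sets. Counted by probe set, with DOWN DEG for a ratio of at most 0.5, 2 of the 11 probe sets naming a snoRNP gene alone and above 50 were DOWN DEGs. They were 1 of NOLC1 and 1 of TCOF1. Of all 17127 probe sets above 50, 0.607% were DOWN DEGs.

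Promoter windows of 300 bases, from 250 before to 50 after the gene start, were taken from RefSeq (GRCh38.p14) and held 6 of the 10 genes, namely FBL, NOP56, DKC1, NHP2, NOP10 and GAR1. They were searched for CACGTG, the E-box to which MYC binds as a dimer with MAX, which reads the same on both strands. The letters were found in 2 of the 6, FBL and NOP10, in 7.43% of all 27305 windows and in 11.1% of the 7482 windows of measured genes. The log2 ratios of FBL and NOP10 were -0.83 and -0.02. FBL held the motif once, its first base at position 7 after the start, and NOP10 held it at positions -170 and -11. A second set of letters, CACGCG on either strand, stood in the windows of FBL and NHP2, in 11.4% of all windows and in 19.4% of those of measured genes. The motifs differ in 1 letter and do not overlap in these windows. The windows of the 4 genes that have both a value and a sequence follow, with each CACGTG in capitals, from FBL (chr19:39846330-39846629, minus strand), NHP2 (chr5:178153836-178154135, minus strand), NOP10 (chr15:34343087-34343386, minus strand) and GAR1 (chr4:109815260-109815559, plus strand).
FBL: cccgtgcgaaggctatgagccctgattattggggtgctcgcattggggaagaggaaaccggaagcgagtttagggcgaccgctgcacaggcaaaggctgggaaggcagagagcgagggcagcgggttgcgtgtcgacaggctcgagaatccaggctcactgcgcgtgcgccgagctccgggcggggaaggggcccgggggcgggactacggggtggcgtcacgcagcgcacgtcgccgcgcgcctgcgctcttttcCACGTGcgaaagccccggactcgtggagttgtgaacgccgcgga
NHP2: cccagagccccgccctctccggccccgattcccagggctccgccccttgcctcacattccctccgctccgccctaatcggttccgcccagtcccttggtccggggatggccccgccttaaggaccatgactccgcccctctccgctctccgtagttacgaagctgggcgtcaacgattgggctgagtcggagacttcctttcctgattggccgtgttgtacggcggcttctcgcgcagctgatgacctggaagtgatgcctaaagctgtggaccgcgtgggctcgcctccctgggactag
NOP10: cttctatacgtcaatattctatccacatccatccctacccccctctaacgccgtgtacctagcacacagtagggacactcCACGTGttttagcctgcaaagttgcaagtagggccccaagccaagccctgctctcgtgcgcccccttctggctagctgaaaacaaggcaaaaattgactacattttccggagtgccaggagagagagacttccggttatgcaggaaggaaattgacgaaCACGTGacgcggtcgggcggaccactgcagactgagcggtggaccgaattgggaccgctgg
GAR1: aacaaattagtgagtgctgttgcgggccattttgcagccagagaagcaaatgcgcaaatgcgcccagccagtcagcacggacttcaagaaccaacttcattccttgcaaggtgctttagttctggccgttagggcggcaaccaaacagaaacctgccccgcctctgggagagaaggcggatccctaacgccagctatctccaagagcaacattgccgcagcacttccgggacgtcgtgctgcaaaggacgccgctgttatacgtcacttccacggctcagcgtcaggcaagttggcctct

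NHP2 and GAR1, 1.65-fold and 1.58-fold lower, hold no CACGTG in these letters, which says nothing of sites elsewhere. A match is a description of the sequence, and binding was not measured here.

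The factors that load the core proteins onto nascent snoRNAs were lower as well, by less. All 17 genes of this list were lower, also after each other scaling, and the median log2 ratio was -0.38. Of these, 5 were lower by at least 1.5-fold. NAF1, which holds the place of GAR1 in the immature H/ACA particle, had 298 and 146 with control and MYC siRNA (2.04-fold lower). RUVBL1 and RUVBL2, the paired ATPases of the R2TP chaperone complex that assembles box C/D particles, had 853 and 492 (1.73-fold lower) and 1972 and 1232 (1.60-fold lower). Their partners in the same complex, RPAP3 and PIH1D1, had log2 ratios of -0.19 and -0.10. NOPCHAP1, which bridges NOP58 to the R2TP complex, was 1.57-fold lower and NUFIP1, a platform for box C/D assembly, 1.57-fold lower. SHQ1, the chaperone of free dyskerin, was 1.38-fold lower.

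Proteins of the U3 snoRNP, the box C/D particle that guides rRNA cleavage rather than methylation, and of the processome around it had a median of -0.70. The median was -0.35 with ratios averaged over probe sets and -0.49 with summed signals. Probe sets under 50 on both arrays enter both as unchanged, and of 2 WDR3 and 3 PWP2 probe sets only 1 each was above 50. All 9 were lower under every scaling, 5 of them by at least 1.5-fold and 2 by at least 2-fold. RRP9, which binds U3 RNA itself, had 208 and 102 (2.04-fold lower). IMP4 was 1.83-fold lower and MPHOSPH10, which forms a complex with it, 1.62-fold lower, while IMP3 of the same complex was 1.25-fold lower. The processome proteins WDR3 and PWP2 were 2.14-fold and 1.75-fold lower.

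**Figure D3:**
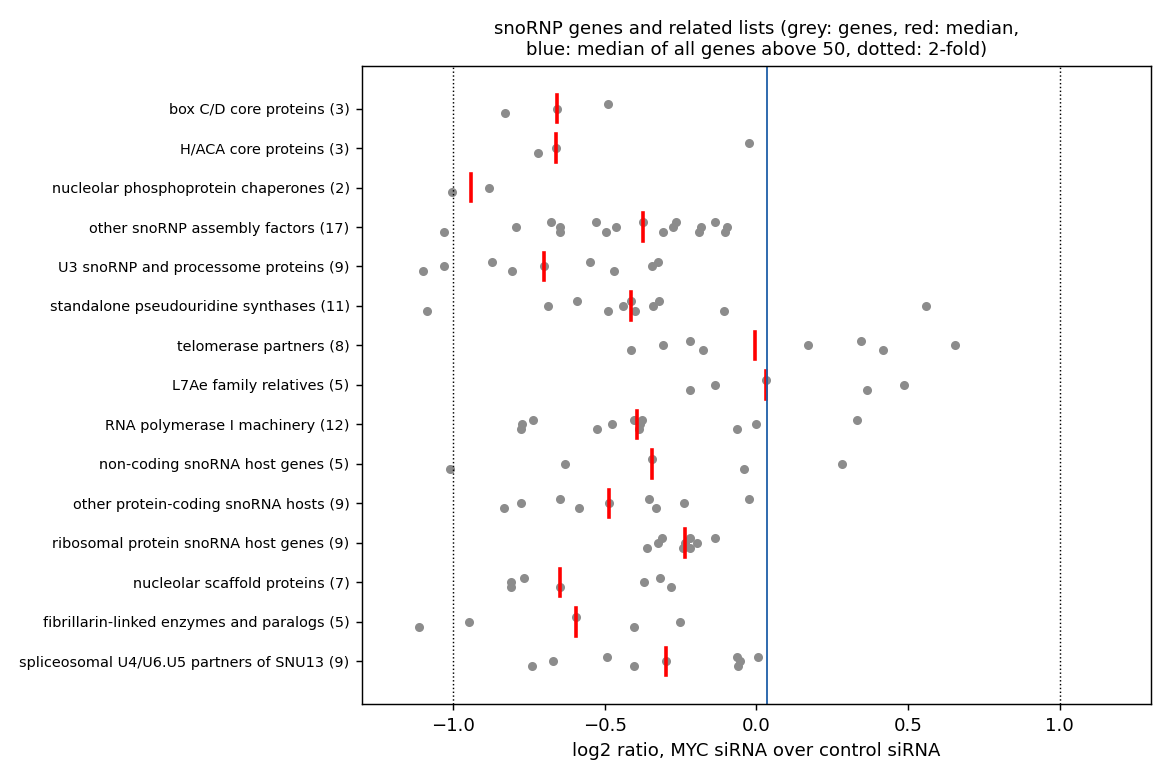
Each measured gene (grey) of the snoRNP groups and related lists by its log2 ratio, MYC siRNA to control (x axis), with gene numbers in parentheses; medians are red bars, the blue line is the median of all genes (0.03) and dotted lines mark 2-fold. U3 snoRNP and processome genes have a median of -0.70, and telomerase partners and L7Ae relatives lie around 0.

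Enzymes that act beside the snoRNPs were lower to a varying degree. Of 11 measured standalone pseudouridine synthases, which work without a guide RNA, 10 were lower and 1 was higher under every scaling, with a median log2 ratio of -0.41. PUS1 was 2.12-fold lower (236 and 111), PUS7L 1.61-fold and RPUSD4 1.51-fold, and TRUB1, a relative of dyskerin, 1.08-fold. The exception, RPUSD3, had 78.1 and 115 in the probe set used, but a second probe set of it had a log2 ratio of -0.81, so its direction is not settled.
Of the arginine methyltransferases, PRMT1, known to modify the glycine- and arginine-rich tail of fibrillarin, was 1.51-fold lower (3004 and 1987). PRMT3 was 1.93-fold lower and PRMT5 2.16-fold (569 and 263) in its brightest probe set. Further PRMT5 probe sets had log2 ratios of -0.76 and -0.77, short of 2-fold. TFB1M, an rRNA methyltransferase of mitochondria, had a log2 ratio of -0.25 in the probe set used and 0.05 in another.

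Genes listed as telomerase and telomere partners were nearer to the middle of all genes. Dyskerin, NHP2, NOP10 and GAR1 are also parts of telomerase. Of 8 measured telomerase and telomere partners, 4 were lower and 4 higher under every scaling, with a median log2 ratio of 0.00. WRAP53, which brings the H/ACA particles of Cajal bodies and telomerase to these bodies, was 1.16-fold lower (214 and 184). Its second probe set had a log2 ratio of -0.52. TINF2 of the shelterin complex was 1.58-fold higher (142 and 224) and PARN, which trims the ends of H/ACA RNAs, 1.34-fold higher. The telomerase reverse transcriptase TERT was at or under 50 on both arrays. RTEL1, under 50 after knockdown, was at least 1.33-fold lower, ACD and TERF1 were 1.24-fold and 1.13-fold lower, and POT1 was 1.13-fold higher. TERF2 was 1.27-fold higher in the probe set used and went both ways among its probe sets.

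SNU13 is shared with the spliceosome. Of 9 proteins of the U4/U6.U5 particle and its recycling, 8 were lower, and all 9 after median centring, with a median log2 ratio of -0.30. PPIH, EFTUD2 and PRPF4 were 1.67-fold, 1.59-fold and 1.41-fold lower. PRPF31, which carries the same RNA-binding domain as NOP56 and NOP58, was 1.32-fold lower (814 and 616). A second PRPF31 probe set had a log2 ratio of -0.69. PRPF8 had 536 and 538. The L7Ae relatives of NHP2 and SNU13 were closer to 0, with a median of 0.03 over 5 genes. RPS12 and RPL30 were 1.16-fold and 1.10-fold lower, RPP38 of RNase P had a log2 ratio of 0.03, and SECISBP2 and SECISBP2L were 1.29-fold and 1.40-fold higher. RPL30 turned to higher and RPP38 to lower after quantile normalization, and RPL30 also turned after loess.

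Other nucleolar genes were lower too. The list named nucleolar scaffold also holds the ribosome assembly genes NOP2, NIP7, NOL6 and SURF6. All 7 of its measured genes were lower in the probe set used under every scaling, with a median of -0.65. This median was -0.37 with a floor of 100 and -0.39 with ratios averaged over probe sets. MKI67 had a log2 ratio of -0.28 in the probe set used, but its 4 probe sets reached up to 0.07, so its direction is not settled. NCL (nucleolin) was 1.57-fold lower (5048 and 3219) and NPM1 (nucleophosmin) 1.29-fold lower (7903 and 6114). Further NPM1 probe sets had log2 ratios of -0.51 and -0.68. NOP2 and NIP7, of the large subunit, were 1.75-fold lower each. NOL6 was 1.70-fold and SURF6 1.25-fold lower. Of 12 genes of the RNA polymerase I machinery, with which treacle and NOLC1 associate, 11 were lower and TAF1B was higher under every scaling, with a median of -0.40. POLR1B, another Treacher Collins gene, was 1.71-fold lower (433 and 254), and POLR1C and POLR1D, further genes of that syndrome, were 1.31-fold and 1.32-fold lower. TAF1D, POLR1E and TAF1A were 1.71-fold, 1.67-fold and 1.44-fold lower. The TAF1D probe set used was dim (106 and 61.9), and brighter shared ones had log2 ratios of -0.63 and -0.53. UBTF, which opens the rDNA for transcription, had 184 and 176.

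Genes that carry snoRNAs in their introns were measured through the host transcript only, since the intronic snoRNAs are not part of it. Of 17 non-coding hosts, 6 had a probe set of their own and 5 of these were above 50. DANCR was 2.02-fold lower (986 and 489), SNHG17 1.55-fold and SNHG19 1.27-fold lower, and SNHG32 1.22-fold higher. ZFAS1 had 2084 and 2026, and it turned to higher after loess and quantile normalization. Of 9 measured protein-coding hosts outside the ribosome, all were lower under every scaling (median -0.49). WDR43 was 1.78-fold lower, and IPO7 went from 2018 to 1344, a log2 ratio of -0.59. All 9 measured hosts that encode ribosomal proteins were lower, by less (median -0.24), and the median was -0.05 after loess and after quantile normalization, where RPL30 was higher. RPL27A, RPL32, RPL12 and RPL37 were 1.28-fold, 1.25-fold, 1.24-fold and 1.18-fold lower. The RPL27A probe set used was dim (148 and 115), and a shared one had 9383 and 8196, 1.14-fold lower.

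The ratio of each snoRNP gene was recomputed under 11 processing alternatives. FBL ranged from -0.84 to -0.70, NHP2 from -0.73 to -0.59 and GAR1 from -0.67 to -0.62. NOLC1 ranged from -1.05 to -0.79 and NOP58 from -0.50 to -0.42. SNU13 and TCOF1 were the widest, from -0.71 to -0.33 and from -1.08 to -0.61. These 7 genes were lower in every alternative that gave them a value, and NOP10 ranged from -0.03 to 0.09.

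**Figure D4:**
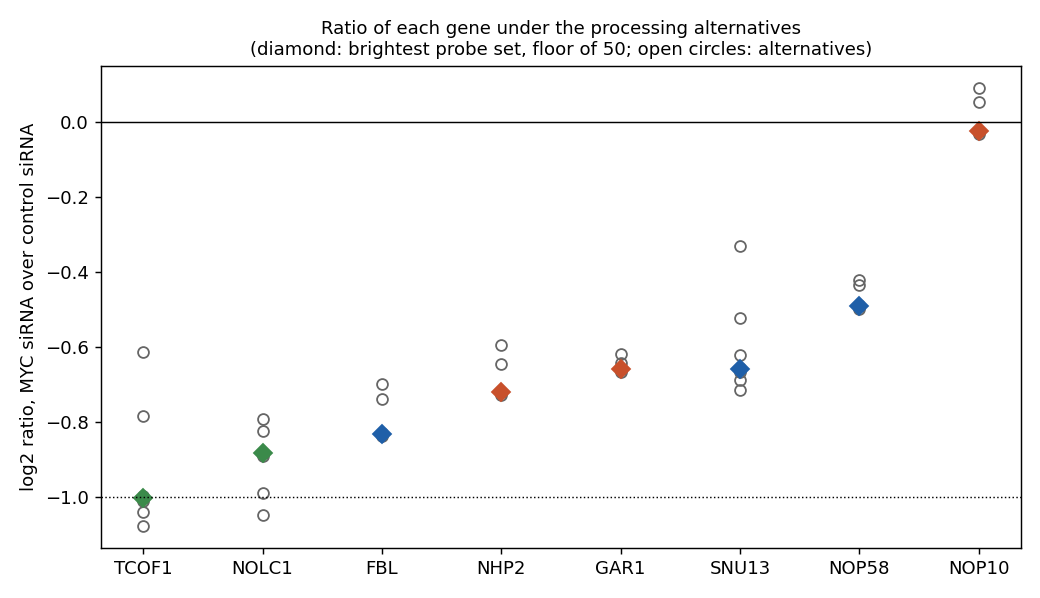
Log2 ratio, MYC siRNA to control (y axis), of the 8 snoRNP genes in order of their ratio, as reported (diamonds) and under up to 11 alternatives (open circles); the dotted line marks 2-fold. The upper circles of TCOF1 (-0.61) and SNU13 (-0.33) are the mean over probe sets, which counts those under 50 as unchanged, and NOP10 alone crosses 0.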

How the data were processed

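RNA of HT-29 cells was hybridised to Affymetrix GeneChip Human Genome U133 Plus 2.0 arrays, 1 per group. The authors deposited intensity as MAS5 signals for 54675 probe sets, made with the R package affy 1.40.0 and brought to a target mean of 100 (checked: the mean without the highest and lowest 2% was 100 on both arrays). They carry no floor and no logarithm. Above 50 were 16074 probe sets on the control array and 16571 after knockdown. The number of arrays limits the precision.

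In the platform annotation 41097 probe sets name 1 gene, 1801 several, and 11777 are not listed. Symbols were updated through gene identifiers to RefSeq (GRCh38.p14), which held 19735 of 19775 genes. Signals under 50 were set to 50, log2 ratios taken, and the brightest probe set used. Members and the 15 lists were chosen with earlier results of these data known. Named are all members, MYC, and of each list all measured genes (if at most 8) or the 4 with the largest ratio and a signal of at least 100. RPAP3, PIH1D1, NUFIP1, SHQ1, MPHOSPH10, IMP3, TRUB1, PRPF8, POLR1C, POLR1D, UBTF, TAF1B and, as under 50, TERT were named beside them for their role or exception, after their values were seen. Alternatives changed the floor, the scaling, the probe sets and the filter. Scripts were tested on simulated data. Python 3.11.15, numpy 2.4.6, pandas 2.3.3, statsmodels 0.14.6 (loess span 0.3) and matplotlib 3.10.9 were used.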

Additional observations from a re-analysis of the deposited data

How the results depend on the processing

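No paired analysis was possible because each group holds 1 array, and no array could be left out. An alternative was taken to move a ratio when it differed by more than the SD of 0.23 between probe sets. The median of the snoRNP genes with a value (5 to 10 of them) stayed between -0.70 and -0.64 over 11 alternatives, and the median of all genes between 0.00 and 0.05. Without probe sets that can bind several transcripts, 5 snoRNP genes had a value, 5 were lower, 3 by at least 1.5-fold and 0 by 2-fold. FBL, NHP2 and TCOF1 had no other probe set above 50 and dropped out, and the ratios of the 5 were as reported. RPL30 and RPS12 of the L7Ae relatives dropped out too. The box C/D median minus the H/ACA median was then -0.23 (0.00 as reported), the median of telomerase partners 0.26 and that of L7Ae relatives 0.40. The count lower by at least 2-fold, 1 as reported, was 0 with no floor and 1 added, where TCOF1 lay at -0.997, and 0 with summed signals, where TCOF1 was -0.78 and NOLC1 -0.99. With log2 ratios averaged over probe sets, SNU13 was -0.33 and TCOF1 -0.61, the U3 list had a median of -0.35, nucleolar scaffold genes -0.39 and fibrillarin-linked genes -0.36; probe sets under 50 on both arrays enter that mean as 0. With a floor of 100 the nucleolar scaffold median was -0.37 and the U4/U6.U5 median -0.063. With shared probe sets taken, the values were -0.91 for NOP56, -0.62 for DKC1 and -0.60 for non-coding hosts. Beyond genes that dropped out or were added and probe sets that enter as 0, the cause of these moves was not tested. The 3' to 5' signal of ACTB, a sign of RNA quality, was 1.16 on the control array and 1.14 after knockdown.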

Other observations

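The rule that a probe set must name 1 gene removes many snoRNA hosts, NOP56 and DKC1 among them. In the platform annotation 103 probe sets name 1 gene beside snoRNAs that it carries, for 47 genes in all. Of the 41 of these genes above 50 in such a probe set, 31 had no probe set of their own. In the brightest shared probe set of each, 38 were lower with MYC siRNA and 3 higher, 12 were lower by at least 1.5-fold and 0 higher by as much, with a median log2 ratio of -0.33. Of all 8917 measured genes, 46.5% were lower, and 5.72% were lower and 10.4% higher by at least 1.5-fold. Other scalings were not applied to these counts. The median of ribosomal protein hosts with a probe set of their own moved from -0.24 to -0.05 after loess or quantile normalization. The values of the 41 genes are those of probe sets with several names, and the share of the signal that comes from each name is unknown.

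Of 7482 measured genes with a RefSeq promoter window, 829 (11.1%) held CACGTG. The median log2 ratio was -0.05 with it and 0.04 without, and 9.77% and 5.10% of these genes were lower by at least 1.5-fold. Of the 420 genes lower by at least 1.5-fold, 19.3% held it. CACGCG on either strand was held by 1449 (19.4%), and the median was -0.05 with it and 0.05 without. Of genes with and without CACGCG, 7.87% and 5.07% were lower by at least 1.5-fold, and 27.1% of the 420 held it. The shift was therefore not particular to CACGTG. Whether base composition or signal differs between these genes was not tested.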
